A study of Mus musculus with 8 samples.

Results

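Enzymes that act on alcohols and aldehydes were followed in NS5 cells, a mouse neural stem cell line. They were read through the 22 probe sets of the array that carry the symbol of 1 of 10 genes and no other symbol. The genes are Aldh1a1, Aldh1a7, Aldh2, Aldh1b1, Aldh3a2, Aldh7a1, Aldh9a1, Adh5, Akr1a1 and Cat, and the array holds 45101 probe sets in all. RNA was measured on 8 Affymetrix arrays in 4 groups of 2, named by treatment as Ethanol and TGF-beta1, TGF-beta1, Ethanol and FGF2, and FGF2. TGF-beta1 is a cytokine that acts through Smad proteins, and FGF2 is a mitogen of neural stem cells. All groups had first grown on poly-ornithine and laminin with EGF and FGF2 for 24 h and then stood 4 h without factors, so the FGF2 exposure before treatment is shared by the TGF-beta1 groups. Treatment lasted 48 h, with the growth factor at 10 ng/ul as the labels write it, a unit the values cannot check, and ethanol at 400 mg/dl in the ethanol groups and at 0 in the other groups. The labels name the cells as brain neural stem cells of stage E11.5 and describe 1 line only, and they do not say whether the arrays of a group came from separate cultures, so p-values measure the spread between these samples, which may be technical.

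Ethanol is oxidised to acetaldehyde by alcohol dehydrogenases and, in brain, also by catalase, and acetaldehyde is oxidised to acetate mainly by the mitochondrial aldehyde dehydrogenase that Aldh2 encodes. The cytosolic aldehyde dehydrogenase that Aldh1a1 encodes uses retinaldehyde as a substrate. The product, retinoic acid, regulates the patterning and differentiation of neural tissue. Other enzymes of the set act on fatty, amino or formaldehyde-derived aldehydes.

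A signal is the brightness of a probe set after each array was scaled to a trimmed mean of 500, so levels were compared between arrays and not between probe sets. Over the arrays the median signal ran from 50.6 to 86.5. Of the neural stem and radial glia markers 11 of 12 passed the signal filter described below, as did 9 of 9 astrocyte, 8 of 10 neuronal and 5 of 8 meningeal and mesenchymal markers, but 0 of 7 endothelial and 1 of 7 microglial markers. In RNA of whole cultures, fewer cells of a type and less RNA per cell cannot be told apart.

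Both ethanol arrays labelled replicate 1 went against their growth factor label. Fn1, the fibronectin gene, had a signal of 124 on Ethanol and TGF-beta1 replicate 1 and 8226 on replicate 2, against 3015 and 4109 in TGF-beta1. It had 6828 on Ethanol and FGF2 replicate 1 and 116 on replicate 2, against 120 and 139 in FGF2. Pmepa1, a target of TGF-beta signalling, had 1081 and 7454 in Ethanol and TGF-beta1, where TGF-beta1 alone had 8093 and 7315. It had 8198 and 1057 in Ethanol and FGF2, against 935 and 548 in FGF2. Every array was kept in the group of its label, and the ethanol differences are given with all arrays and, where stated, without both. The 3' signal of the Gapdh control, divided by its 5' signal to gauge RNA integrity, came to 3.33 and 3.48 in Ethanol and FGF2 and lay between 1.64 and 2.20 on the other 6 arrays; its part in the ethanol differences within FGF2 was not tested.

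Of the 10 genes, 9 passed a filter on low signal and were tested among 10916 genes with limma on log2(signal + 23.66), with Benjamini-Hochberg adjusted p-values taken over all of them and a threshold of 0.05. None of the 9 passed in any of 5 comparisons. For ethanol averaged over both growth factors 0 of 9 passed, where 1.99% of all genes did. Within TGF-beta1 0 of 9 passed, where 1.19% did. Within FGF2, in the interaction of ethanol with growth factor, and for TGF-beta1 against FGF2 without ethanol, 0 of 9 passed and 0% of all genes did. At an unadjusted p under 0.05 by limma stood 1 of 9 in the average (10.8% of all genes), 2 within TGF-beta1 (9.47%), 2 within FGF2 (8.30%), 2 for the interaction (4.43%) and 2 between growth factors (4.96%).

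Aldh1a1 and Aldh1a7 showed the widest differences between groups. Aldh1a1 (cytosolic retinaldehyde dehydrogenase) and its close paralog Aldh1a7 are neighbours on chromosome 19 (GRCm38.p6), from 20492583 to 20643463 and from 20692953 to 20727556, with 49489 bases between them. Each was read by 1 probe set, and whether the probes of one also bind the transcript of the other was not tested. Promoter windows from RefSeq (GRCm38.p6, 250 bases before to 50 after an annotated start) are shown for this pair because both genes had their highest signals in TGF-beta1. Capitals mark matches on either strand to the CCAAT box, to the TATA motif spelled TATAAA, and to a short Smad-binding motif spelled CAGAC. No matches overlap.
Aldh1a1, chr19:20601718-20602017, + strand: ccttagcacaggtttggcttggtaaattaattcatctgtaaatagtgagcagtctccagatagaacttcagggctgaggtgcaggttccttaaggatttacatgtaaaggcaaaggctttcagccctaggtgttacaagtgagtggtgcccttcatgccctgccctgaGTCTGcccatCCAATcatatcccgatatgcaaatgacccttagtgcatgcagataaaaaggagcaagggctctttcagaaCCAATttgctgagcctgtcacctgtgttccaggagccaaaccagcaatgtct
Aldh1a7, chr19:20727507-20727806, - strand: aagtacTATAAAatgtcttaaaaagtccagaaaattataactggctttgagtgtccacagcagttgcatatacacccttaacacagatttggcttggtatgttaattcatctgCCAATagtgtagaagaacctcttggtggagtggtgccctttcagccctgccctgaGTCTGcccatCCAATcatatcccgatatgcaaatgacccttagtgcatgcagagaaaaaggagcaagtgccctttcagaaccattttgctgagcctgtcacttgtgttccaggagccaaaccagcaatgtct
The windows were 70.2% identical over 315 aligned columns. Each held 2 CCAAT boxes and 1 Smad-binding motif, and the Aldh1a7 window also held 1 TATA motif, at its upstream end and far from the start. Both windows had a CCAAT box just after the Smad-binding motif, while their other CCAAT box lay at different places. Of all 32851 RefSeq windows of this length, 37.4% hold the CCAAT box, 49.6% the Smad-binding motif and 13.6% the TATA motif. A second Aldh1a1 window at the far upstream start (from 20492333 to 20492632) held 0 matches to any of the 3 motifs and was 50.6% identical to that of Aldh1a7. A match is a run of letters and not evidence of binding.

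**Figure D1:**
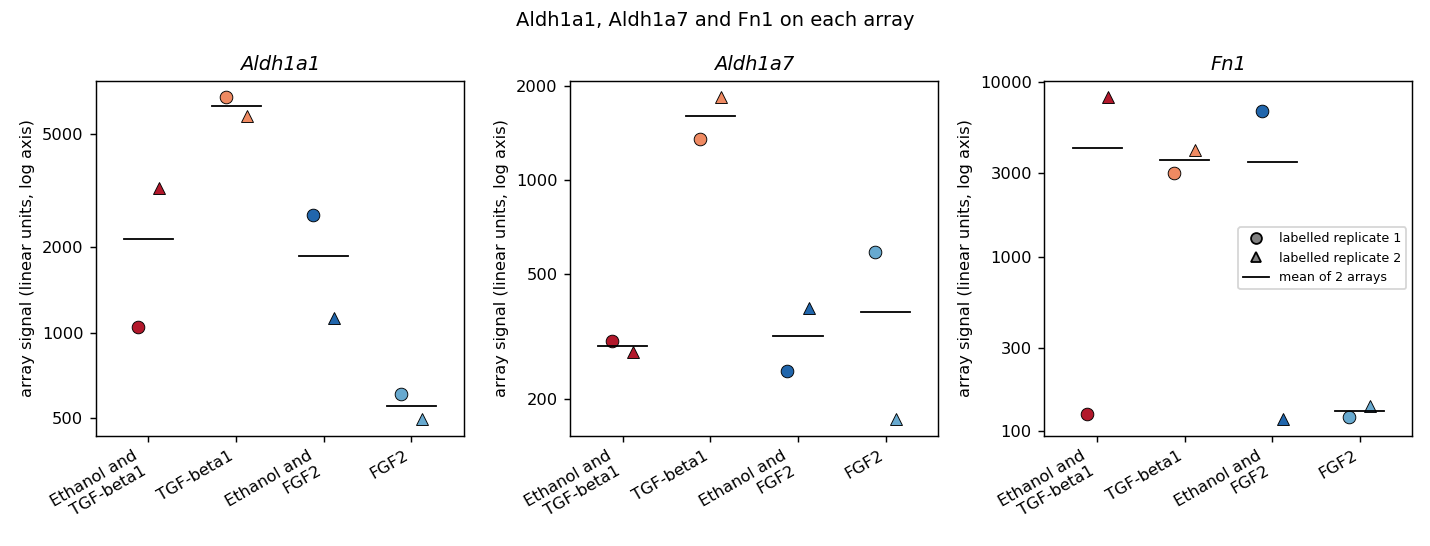
Signal of Aldh1a1, Aldh1a7 and Fn1 on each of the 8 arrays (linear units on a log axis, scale differing between panels), with circles for arrays labelled replicate 1, triangles for replicate 2 and a line at the mean of each group. Aldh1a1 lies at 6742 and 5773 in TGF-beta1 against 609 and 494 in FGF2, Aldh1a7 is at most 391 on the 4 ethanol arrays, and the Fn1 panel shows the 2 ethanol arrays labelled replicate 1 standing with the other growth factor.

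Without ethanol, the Aldh1a1 signal was 6742 and 5773 in TGF-beta1, against 609 and 494 in FGF2. These groups did not overlap, and the mean was 6258 ± 685 in TGF-beta1 and 552 ± 81.3 in FGF2 (SD, n = 2 each). The log2 fold change of TGF-beta1 against FGF2 was 3.45 ± 0.52 (SE, 95% confidence interval 2.28 to 4.63, limma adjusted p = 0.354), a fold of 10.9. It ranked 3 of 10916 genes by p and 5 by size in a comparison with 0 calls by limma and 541 genes at an unadjusted p under 0.05. The test pools the spread of all 4 groups, and the ethanol groups differed most between their own arrays: by 1.60 log2 units for Aldh1a1 in Ethanol and TGF-beta1 and 1.19 in Ethanol and FGF2, against 0.22 in TGF-beta1 and 0.29 in FGF2. In a fit of the 4 arrays without ethanol alone, chosen after the data were seen, the SE was 0.21 and Aldh1a1 passed (limma adjusted p = 0.0126), as 1 of 5 genes called among 10916. Leaving out both ethanol arrays labelled replicate 1 (adjusted p = 0.0119) is not a separate check, since the spread then comes from the same 4 arrays, with 2 residual degrees of freedom in both fits.

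Aldh1a7 had signals of 1356 and 1840 in TGF-beta1, against 588 and 172 in FGF2. The groups did not overlap, but the FGF2 arrays were 1.64 log2 units apart. The log2 fold change of TGF-beta1 against FGF2 was 2.21 ± 0.49 (SE, limma adjusted p = 0.981), and with the 4 arrays without ethanol alone the adjusted p was 0.407. It was 3.03 without FGF2 replicate 1 and 1.39 without FGF2 replicate 2. Summed signals of marker lists differed in this comparison. The neuronal list of 10 genes summed to 5687 to 7382 in TGF-beta1, against 8456 to 12150 in FGF2, with 2 of 8 tested genes above 0. Most of this sum was Map2, at 5331 and 6588 in TGF-beta1, against 7731 and 10230 in FGF2. Of 9 astrocyte markers tested, 4 were above 0. Among these 4 was Gfap, at 2102 and 2461 in TGF-beta1, against 534 and 61.9 in FGF2 (limma adjusted p = 0.981). The meningeal and mesenchymal list of 8 genes summed to 1401 to 1484 in TGF-beta1, against 650 to 838 in FGF2, with 3 of 5 tested genes above 0. Most of that sum's difference was Col1a1, a collagen gene, at 1068 and 810 in TGF-beta1, against 296 and 188 in FGF2, while Dcn (decorin) had −0.36 ± 0.71 and Col3a1 −0.08 ± 0.50 (log2 fold change, SE). The part of these markers in the Aldh1a1 and Aldh1a7 differences was not tested.

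With ethanol, Aldh1a1 lay between the levels of the ethanol-free groups. Its signal was 1048 and 3228 in Ethanol and TGF-beta1 (replicates 1 and 2), both under the 6742 and 5773 of TGF-beta1. It was 2602 and 1126 in Ethanol and FGF2, both above the 609 and 494 of FGF2. The log2 fold changes with ethanol were −1.75 ± 0.52 within TGF-beta1 (SE, limma adjusted p = 0.257) and 1.60 ± 0.52 within FGF2 (adjusted p = 0.426), and their average was −0.07 ± 0.37. The interaction, ethanol within TGF-beta1 minus ethanol within FGF2, was −3.35 ± 0.73 (adjusted p = 0.832), rank 4 of 10916 by p in a comparison with 0 calls by limma and 484 genes at an unadjusted p under 0.05.

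In each ethanol group the array with the higher Aldh1a1 signal was also the one with the higher Fn1 signal: 3228 with Fn1 at 8226, against 1048 with Fn1 at 124, in Ethanol and TGF-beta1, and 2602 with Fn1 at 6828, against 1126 with Fn1 at 116, in Ethanol and FGF2. The 4 highest Aldh1a1 signals thus stood on the 4 arrays with the highest Fn1 signals. Without both arrays labelled replicate 1, which leaves 1 array in each ethanol group and assumes that it varies like the other groups, the fold changes kept their signs at −0.95 ± 0.26 within TGF-beta1 (limma adjusted p = 0.36) and 1.01 ± 0.26 within FGF2 (adjusted p = 0.611). The interaction was then −1.95 ± 0.36 (adjusted p = 1).

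Aldh1a7 was low on every ethanol array. Its signal was 307 and 283 in Ethanol and TGF-beta1, compared with 1356 and 1840 in TGF-beta1. It was 246 and 391 in Ethanol and FGF2, against 588 and 172 in FGF2. The groups did not overlap in TGF-beta1 but did in FGF2. Within TGF-beta1 the log2 fold change was −2.33 ± 0.49 (SE, 95% confidence interval −3.44 to −1.22, limma adjusted p = 0.0689), and within FGF2 it was −0.05 ± 0.49 (adjusted p = 0.985). Whether these differ was tested by the interaction, −2.28 ± 0.69 (adjusted p = 0.832), which ran from −3.10 without FGF2 replicate 1 to −1.46 without FGF2 replicate 2. The average over both growth factors was −1.19 ± 0.35 (adjusted p = 0.182).

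For Aldh1a7 both arrays of Ethanol and TGF-beta1 agreed within 0.11 log2 units, although their Fn1 signals were 124 and 8226. Without both arrays labelled replicate 1 its fold change within TGF-beta1 was −2.39 ± 0.65 (limma adjusted p = 0.36). The call depended on single choices: within TGF-beta1 it passed with a constant of 100 (adjusted p = 0.0479) and without either FGF2 array (0.0132 without replicate 1, 0.0114 without replicate 2), and in the average without FGF2 replicate 2 (−1.60, adjusted p = 0.0126). Without FGF2 replicate 1 the average was −0.78 (adjusted p = 0.304), and without both ethanol arrays labelled replicate 1 it was −1.06 (adjusted p = 0.497). The FGF2 arrays did not enter the fold change within TGF-beta1, only the pooled spread of its test. With the replicate number as a block, the adjusted p within TGF-beta1 was 0.139. The neuronal marker sum was 9798 to 14970 in Ethanol and TGF-beta1, against 5687 to 7382 in TGF-beta1. Most of it was Map2, at 12180 and 8107 against 5331 and 6588. Of 8 neuronal markers tested within TGF-beta1, 2 passed, where 1.19% of all genes did. These were Celf4 (3.41 ± 0.62, SE, limma adjusted p = 0.0403) and Dcx (2.70 ± 0.52, adjusted p = 0.0488). Celf4 also passed in the average (2.76 ± 0.44, adjusted p = 0.013). Its signal in TGF-beta1 was 14.9 and 69.9, beside the added constant of 23.66, against 846 and 447 in Ethanol and TGF-beta1. Under the replicate block 0 genes passed within TGF-beta1 by limma. Without both ethanol arrays labelled replicate 1 the averages were 2.72 for Celf4 and 1.34 for Dcx. The part of these markers in the Aldh1a7 difference was not tested.

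Across the 8 arrays the log2 values of Aldh1a1 and Aldh1a7 correlated at r = 0.657. The tested genes with the patterns most like that of Aldh1a1 were Pgpep1 (r = 0.989), Amz1 (0.966), AU020206 (0.961), Tmem43 (0.960) and Has2 (0.956). Those most like Aldh1a7 were Lypd1 (r = 0.963), Oma1 (0.962), Brip1 (0.960), Pkmyt1 (0.960) and Rnaseh2b (0.957). Fn1 correlated at r = 0.857 with Aldh1a1 and at 0.299 with Aldh1a7. These correlations describe 8 arrays that share 4 treatments and the scaling, and the genes were picked as the highest of 10916.

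**Figure D2:**
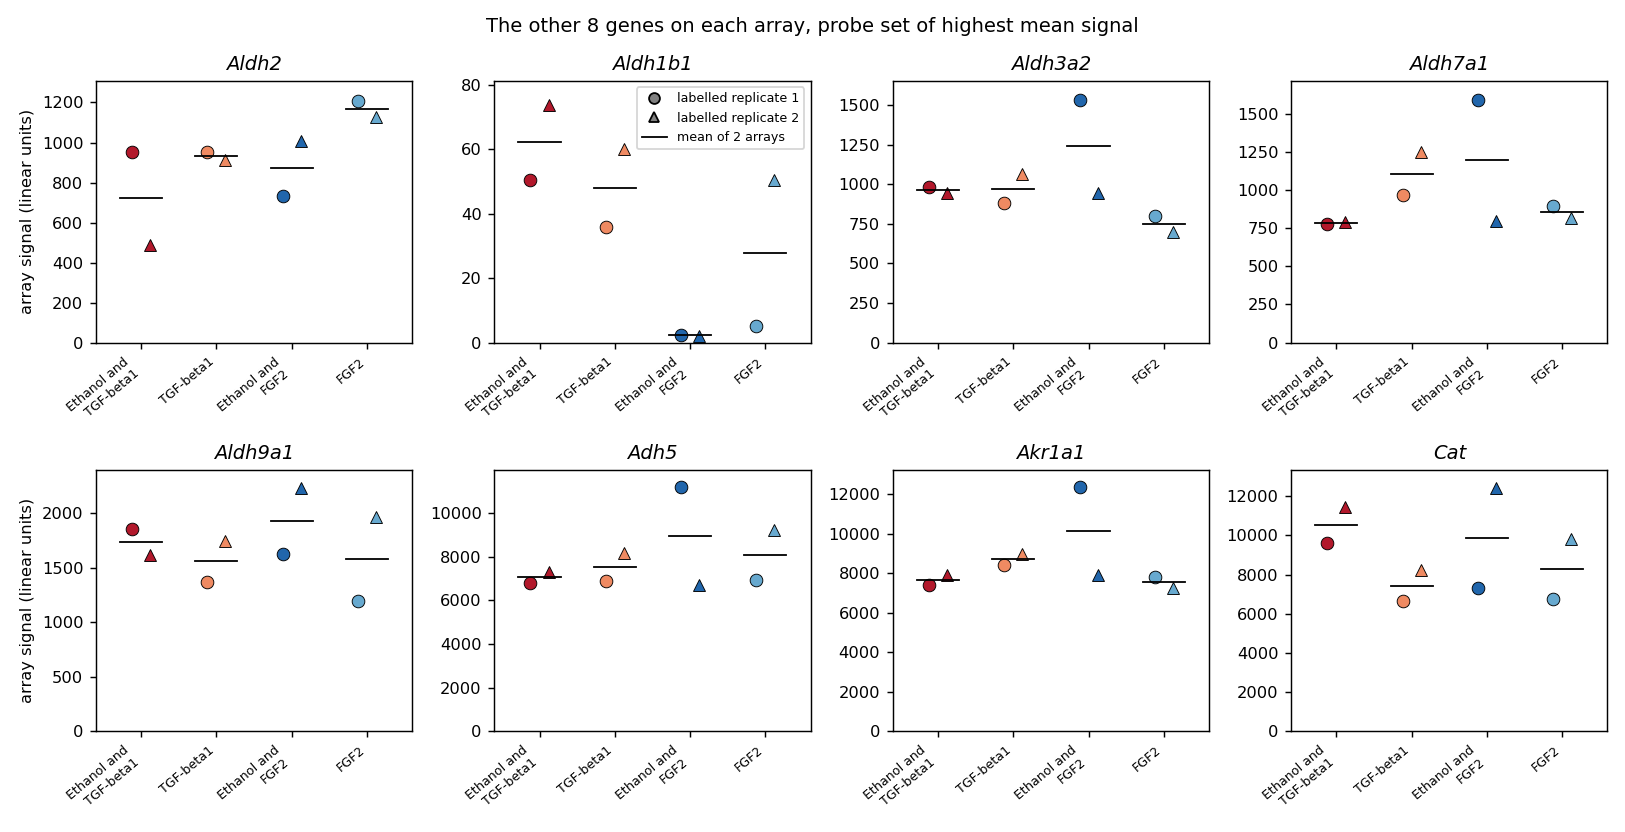
Signal of the other 8 genes on each array (linear units, each axis from 0), with circles for arrays labelled replicate 1, triangles for replicate 2 and a line at the mean of each group. Aldh2 lies lower in Ethanol and FGF2 (734 and 1009) than in FGF2 (1209 and 1128), and Adh5, Akr1a1, Aldh3a2 and Aldh7a1 are highest on Ethanol and FGF2 replicate 1.

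The acetaldehyde-oxidising enzyme of the mitochondrion, Aldh2, had lower mean signals with ethanol in both growth factors, without passing the test. Its signal was 951 and 490 in Ethanol and TGF-beta1, compared with 953 and 913 in TGF-beta1, where the arrays of the ethanol group were 0.92 log2 units apart and 951 fell between both TGF-beta1 values. It was 734 and 1009 in Ethanol and FGF2, against 1209 and 1128 in FGF2, with no overlap. The log2 fold changes were −0.43 ± 0.32 within TGF-beta1 and −0.43 ± 0.32 within FGF2 (SE, limma adjusted p = 0.722 and 0.763), and −0.43 ± 0.23 in the average (95% confidence interval −0.95 to 0.09, adjusted p = 0.553). Without Ethanol and TGF-beta1 replicate 2 the average was −0.20 (adjusted p = 0.949), without its replicate 1 it was −0.66, and with the mean over all probe sets it was −0.21. Within FGF2 it was −0.21 without Ethanol and FGF2 replicate 1 and −0.65 without its replicate 2. Without both ethanol arrays labelled replicate 1 the values were −0.90 within TGF-beta1, −0.21 within FGF2 and −0.55 in the average.

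Aldh2 had 5 probe sets, of which 3 passed the filter. All 3 had negative averages with ethanol, at −0.43, −0.37 and −0.58. The other 2 had signals of at most 52.7 on every array. Without ethanol, Aldh2 was 953 and 913 in TGF-beta1, against 1209 and 1128 in FGF2, groups that did not overlap (log2 fold change −0.32 ± 0.32, limma adjusted p = 0.982).

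Aldh1b1, a second mitochondrial enzyme that uses acetaldehyde, was below the signal filter and was not tested. Its 1 probe set gave 50.5 and 73.7 in Ethanol and TGF-beta1, compared with 35.7 and 60.1 in TGF-beta1. It gave 2.47 and 2.17 in Ethanol and FGF2, against 5.12 and 50.4 in FGF2. Several of these values lie under the added constant of 23.66, and no fold change is given.

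Catalase, which oxidises ethanol with hydrogen peroxide in the peroxisome, had higher mean signals with ethanol but did not pass. The Cat signal was 9635 and 11470 in Ethanol and TGF-beta1, compared with 6666 and 8213 in TGF-beta1, with no overlap. It was 7305 and 12430 in Ethanol and FGF2, against 6774 and 9838 in FGF2, where the arrays overlapped. The log2 fold changes were 0.51 ± 0.31 within TGF-beta1, 0.22 ± 0.31 within FGF2 and 0.36 ± 0.22 in the average (SE, limma adjusted p = 0.657, 0.886 and 0.618). Its second probe set gave 0.74, 0.27 and 0.50. Within FGF2 the sign rested on single arrays: without Ethanol and FGF2 replicate 2 it was −0.16, and without FGF2 replicate 1 it was −0.05. The average was then 0.17 and 0.23, but 0.56 without Ethanol and FGF2 replicate 1 and 0.62 without both ethanol arrays labelled replicate 1 (limma adjusted p = 0.441).

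Adh5, a class III alcohol dehydrogenase that acts on the formaldehyde adduct of glutathione rather than mainly on ethanol, differed little between groups. Its signal was 6809 and 7297 in Ethanol and TGF-beta1, compared with 6901 and 8162 in TGF-beta1. It was 11180 and 6717 in Ethanol and FGF2, against 6933 and 9216 in FGF2. All of these groups overlapped, and the average log2 fold change was 0.01 ± 0.20 (95% confidence interval −0.45 to 0.47 on the log2 scale, limma adjusted p = 0.993). Its second probe set was at most 15.8 on every array.

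Akr1a1, an aldo-keto reductase that reduces aldehydes to alcohols, had a signal of 7420 and 7916 in Ethanol and TGF-beta1, compared with 8407 and 8999 in TGF-beta1. It was 12360 and 7929 in Ethanol and FGF2, against 7819 and 7262 in FGF2. The groups did not overlap in either growth factor and lay in opposite order, with log2 fold changes of −0.18 ± 0.25 within TGF-beta1 and 0.39 ± 0.25 within FGF2 (SE, limma adjusted p = 0.878 and 0.722). The interaction was −0.57 ± 0.36 (adjusted p = 0.832). Of its 4 probe sets, all above the filter, 3 had this pair of signs, while the fourth gave 0.16 within TGF-beta1 and 0.19 within FGF2. Without both ethanol arrays labelled replicate 1 the interaction was −0.21 ± 0.36 (limma adjusted p = 1).

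**Figure D3:**
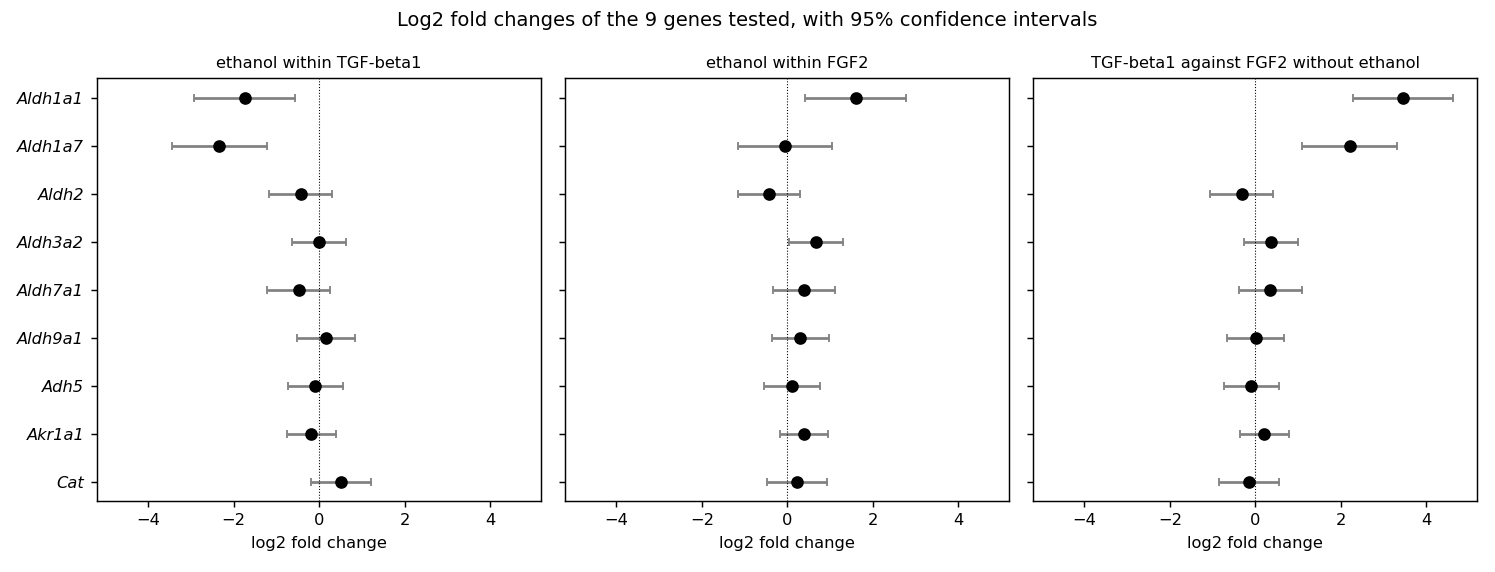
Log2 fold changes of the 9 genes tested (points) with 95% confidence intervals (bars) for ethanol within TGF-beta1, ethanol within FGF2, and TGF-beta1 against FGF2 without ethanol. Aldh1a1 and Aldh1a7 lie farthest from 0, at 3.45 and 2.21 for the growth factors, and the other 7 genes lie within 0.68 of 0 in all 3 panels; no gene passed the adjusted test.

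Aldh3a2 encodes the fatty aldehyde dehydrogenase of the endoplasmic reticulum. Its signal was 981 and 948 in Ethanol and TGF-beta1, compared with 880 and 1065 in TGF-beta1, with overlap. It was 1532 and 947 in Ethanol and FGF2, against 797 and 699 in FGF2, with no overlap. The log2 fold change was −0.01 ± 0.28 within TGF-beta1 and 0.67 ± 0.28 within FGF2 (SE, limma adjusted p = 0.995 and 0.574).

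Aldh7a1 (antiquitin, an enzyme of lysine breakdown) had a signal of 778 and 787 in Ethanol and TGF-beta1, compared with 967 and 1248 in TGF-beta1, with no overlap. It was 1591 and 799 in Ethanol and FGF2, against 894 and 818 in FGF2, with overlap. The log2 fold changes were −0.48 ± 0.32 within TGF-beta1 and 0.39 ± 0.32 within FGF2 (SE, limma adjusted p = 0.692 and 0.783). Its probe sets disagreed within FGF2: the second above the filter gave −0.54, and the mean over all 3 probe sets of the gene gave −0.35. The third had a signal of at most 74.2.

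Aldh9a1, which oxidises an amino aldehyde in carnitine synthesis, had a signal of 1850 and 1611 in Ethanol and TGF-beta1, compared with 1366 and 1745 in TGF-beta1. It was 1626 and 2230 in Ethanol and FGF2, against 1194 and 1967 in FGF2. Both pairs of groups overlapped, and the average was 0.23 ± 0.21 (SE, limma adjusted p = 0.783). Its second probe set gave 0.38.

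The arrays of Ethanol and FGF2 were farther apart than the median gene for all 9 genes tested, by 0.45 to 1.19 log2 units against a median of 0.42 over 10916 genes. On replicate 1 of that group, which also had Fn1 at 6828, stood the highest signals of all 8 arrays for Adh5 (11180), Akr1a1 (12360), Aldh3a2 (1532) and Aldh7a1 (1591). Without it the log2 fold changes within FGF2 were −0.25 for Adh5, 0.07 for Akr1a1, 0.33 for Aldh3a2 and −0.09 for Aldh7a1, against 0.12, 0.39, 0.67 and 0.39 with it. Without both ethanol arrays labelled replicate 1 the average was −0.15 for Adh5, −0.03 for Akr1a1, 0.15 for Aldh3a2, −0.28 for Aldh7a1 and 0.30 for Aldh9a1, against 0.01, 0.11, 0.33, −0.04 and 0.23 with all arrays.

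Counted over the 9 genes tested, ethanol separated both arrays from both controls for 5 within TGF-beta1 (Aldh1a1, Aldh1a7, Akr1a1 and Aldh7a1 lower, Cat higher), where 47.9% of all genes were separated. Within FGF2 it did so for 4 (Aldh1a1, Akr1a1 and Aldh3a2 higher, Aldh2 lower), where 32.0% were. For 0 of 9 were the groups separated in the same direction in both growth factors, where 10.5% of all genes were. For Aldh1a1 and Akr1a1 they were separated in opposite directions, where 5.25% of all genes were. TGF-beta1 and FGF2 without ethanol were separated for 6 (Aldh1a1, Aldh1a7, Akr1a1, Aldh3a2 and Aldh7a1 higher in TGF-beta1, Aldh2 lower), where 36.2% of all genes were. The median log2 fold change of the 9 genes was −0.18 within TGF-beta1, 0.31 within FGF2 and 0.01 in the average, beside −0.01, 0.05 and 0.03 over all genes tested.

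**Figure D4:**
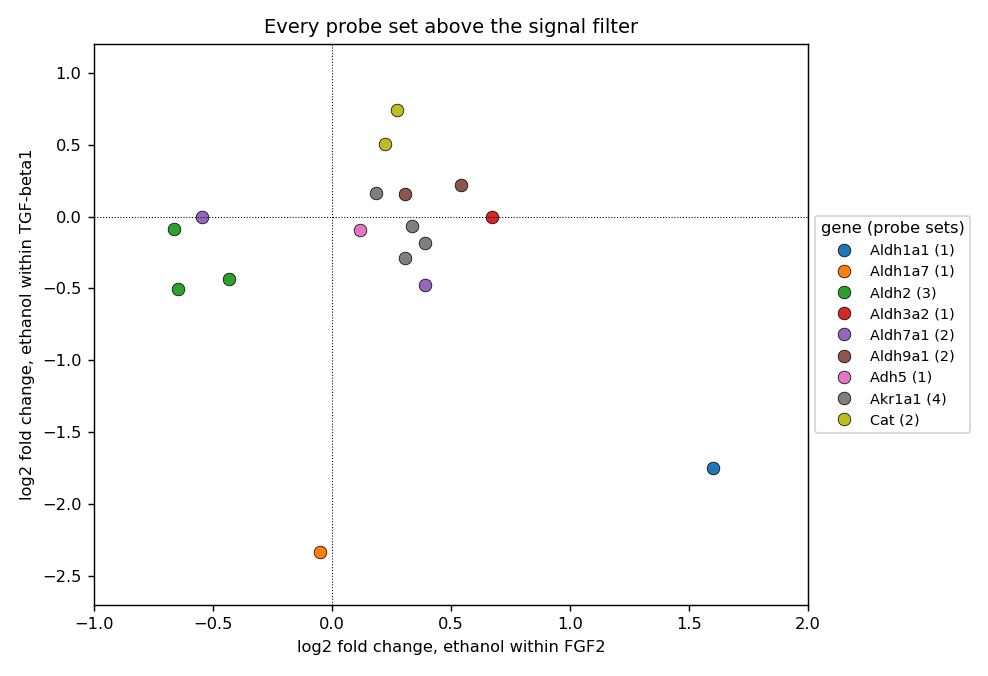
Log2 fold change with ethanol within FGF2 (horizontal) and within TGF-beta1 (vertical) for the 17 of 22 probe sets above the signal filter, coloured by gene, with the number of probe sets of each gene in the legend. The 3 Aldh2 probe sets lie below 0 on both axes and the 2 Cat probe sets above 0 on both, Aldh1a1 lies at 1.60 and −1.75, and the 2 Aldh7a1 probe sets lie on opposite sides of 0 within FGF2.

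Enzymes around these genes in the same pathways were read from lists of other family members. Of 13 other aldehyde dehydrogenases 8 were tested and 0 passed in any comparison, with averages from −0.14 to 0.23. The largest in size were Aldh18a1, which acts in proline synthesis (0.23 ± 0.22), and Aldh1l2, a mitochondrial folate enzyme (0.19 ± 0.23, SE). Aldh1a2 and Aldh1a3, which also oxidise retinaldehyde, did not pass the filter. Of 16 other alcohol dehydrogenases, aldo-keto and carbonyl reductases, with the ethanol-oxidising cytochrome Cyp2e1, 7 were tested and 0 passed. Among them Adhfe1, an iron-type dehydrogenase, had −0.67 ± 0.28 (limma adjusted p = 0.431) and Akr1b10 had −0.38 ± 0.18 (adjusted p = 0.494). The classical genes Adh1, Adh4 and Adh7 and Cyp2e1 were below the filter.

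Of 20 genes for retinol and retinaldehyde enzymes and binding proteins 7 were tested and 0 passed, with a median of −0.15 in the average. Rdh5 and Rdh10, retinol dehydrogenases that make retinaldehyde, had 1.32 ± 0.41 (limma adjusted p = 0.23) and 0.60 ± 0.24 (adjusted p = 0.392, SE). Of 6 retinoic acid receptor genes 3 were tested and 0 passed (Rxrb 0.23 ± 0.28 and Rarb −0.23 ± 0.32). Of 7 genes of acetate use 5 were tested and 0 passed. Acss1, the mitochondrial acetyl-CoA synthetase that activates acetate, had −0.65 ± 0.27 (adjusted p = 0.426), and Acat1, a mitochondrial thiolase, had −0.49 ± 0.18 (adjusted p = 0.324). Medians of these 5 lists ran from −0.21 to 0.03, beside 0.03 over all genes tested. Without both ethanol arrays labelled replicate 1 again 0 genes of these lists passed by limma. The median of the retinol list was then 0.11, against −0.15 with all arrays, and the averages were 1.45 ± 0.40 for Rdh5, 0.61 ± 0.20 for Rdh10, −0.79 ± 0.23 for Acss1, −0.53 ± 0.19 for Acat1 and −0.50 ± 0.23 for Adhfe1 (SE). Aldh18a1 had 0.36, Rxrb 0.65 and Rarb −0.56, each over 1.5 times its value with all arrays.

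**Figure D5:**
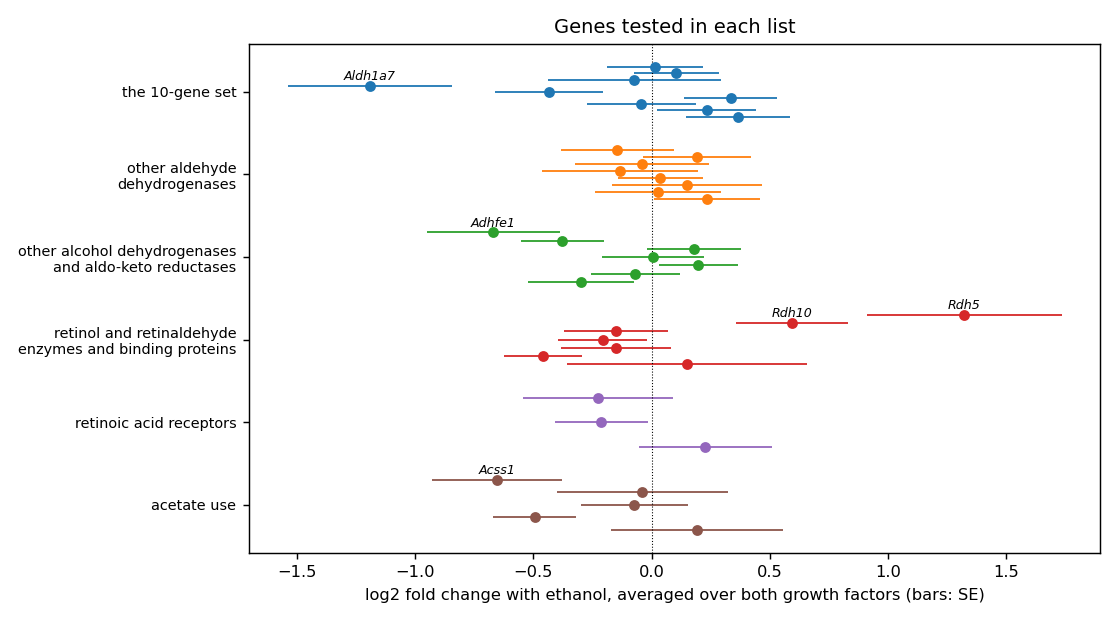
Log2 fold change with ethanol averaged over both growth factors (points, bars are SE) for each gene tested in the 10-gene set and in 5 lists of related enzymes and receptors; genes beyond 0.55 in size are named. Aldh1a7 lies lowest at −1.19 and Rdh5 highest at 1.32, and no gene shown passed the adjusted test.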

How the data were processed

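RNA of 8 NS5 samples was purified with RNeasy and hybridized as biotin-labelled cRNA, per the labels. The deposited table lists, for every array, a linear signal intensity of each probe set; the submitters' processing notes name MAS5 and GCOS, and their versions are not given in the sources used here. The 2% trimmed mean was 500 on each array. Genes were named from the platform annotation: 34958 probe sets had 1 symbol and 932 had several, and those with several or none were left out. Each of 18194 genes took its probe set of highest mean log2 signal, and those whose mean log2 value reached the 40th percentile (6.40) were tested, which left 10916. The constant added to signals, 23.66, is their 25th percentile. limma 3.58.1 in R 4.3.3 fitted 4 group means with an empirical Bayes trend (4 residual and 4.93 prior degrees of freedom), tested on simulated data. P-values are two-sided. Precision is limited by the number of arrays. In the 5 lists of related enzymes and receptors 0 genes passed, and the 2 with the largest average in size are named from each. From the marker lists, the neuronal genes past the threshold are named, and other genes only to describe a list. The 5 genes most correlated with Aldh1a1 and with Aldh1a7 are named as well. The genes and lists were chosen with earlier results of these data known. Alternatives were the constant, the filter, the probe set rule, quantile normalization, no trend, an additive model, a replicate block and arrays left out. Replicate numbers were checked for pairing by correlating deviations from group means over the 6 pairs of groups. The value was 0.47 for FGF2 with TGF-beta1, −0.44 for the 2 ethanol groups and between −0.13 and 0.05 for the rest. Median signals of FGF2 and TGF-beta1 were 50.7 and 50.6 in replicate 1, and 86.5 and 80.7 in replicate 2. The ethanol groups include the arrays that went against their growth factor label, so their negative value cannot decide on pairing. The main fits did not pair the arrays. Pairing of FGF2 with TGF-beta1 was not tested in the fit of the 4 arrays without ethanol. Promoter windows matched 8 of 10 genes.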

Additional observations from a re-analysis of the deposited data

Results flagged for a closer look

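Chosen for a closer look were 2 genes whose ethanol arrays all lay on one side of the controls in TGF-beta1 and all on the other side in FGF2. For Aldh1a1 the signals were 1048 and 3228 in Ethanol and TGF-beta1, compared with 6742 and 5773 in TGF-beta1, and 2602 and 1126 in Ethanol and FGF2, compared with 609 and 494 in FGF2. The test of that difference, ethanol within TGF-beta1 minus ethanol within FGF2, gave −3.35 on the log2 scale (limma adjusted p = 0.832, and 0.191 to 1 over the alternatives), and −1.95 without both ethanol arrays labelled replicate 1. For Akr1a1 it gave −0.57 (limma adjusted p = 0.832, and 0.227 to 1 over the alternatives), and −0.21 without both those arrays. Neither passed the threshold. Groups of 2 arrays were too small for a rule that flags single arrays gene by gene. Fn1 and Pmepa1 did set both ethanol arrays labelled replicate 1 apart from their label. Without Ethanol and FGF2 replicate 1 the Akr1a1 log2 fold change within FGF2 was 0.07, against 0.39 with it. Of all genes tested, 5.25% showed such opposite order of the groups.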

How the results depend on the processing

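Of 9 genes tested, 0 passed in all 5 comparisons under the alternatives run by limma, with these exceptions. Within TGF-beta1 the count was 1 with a constant of 100, and 0 to 1 with an array left out (Aldh1a7 without either FGF2 array). In the average it was 0 to 1 with an array left out (Aldh1a7 without FGF2 replicate 2). For TGF-beta1 against FGF2 it was 1 (Aldh1a1) with only the 4 arrays with no ethanol, an alternative chosen after seeing the data, and 0 to 1 with arrays left out (1 without both ethanol arrays labelled replicate 1). With the replicate block 0 of 9 passed in every comparison, no member's call changed, and all genes called within TGF-beta1 numbered 0 instead of 130 (1025 at an unadjusted p under 0.05). Over all genes, the average called 217, against 119 with the filter at the 60th percentile, 128 without Ethanol and TGF-beta1 replicate 1, 94 without TGF-beta1 replicate 1 and 0 without both ethanol arrays labelled replicate 1 (1139 at an unadjusted p under 0.05). Within TGF-beta1 130 were called, against 75 with that filter, 86 with the mean over probe sets, 78 with no trend, 65 without Ethanol and TGF-beta1 replicate 2, and 0 without its replicate 1, without either TGF-beta1 array or without both ethanol arrays labelled replicate 1 (532 to 934 at an unadjusted p under 0.05). Within FGF2 0 were called (906 at an unadjusted p under 0.05), against 29 with no filter, 3 with the stricter one, 53 with quantile normalization, 77 without FGF2 replicate 2, 1 without FGF2 replicate 1, and 14 and 15 without replicates 1 and 2 of Ethanol and TGF-beta1. Between growth factors 0 were called, against 5 without both ethanol arrays labelled replicate 1 or with the 4 arrays with no ethanol.

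Some values turned sign, none of them past the threshold. With quantile normalization the average of Adh5 was −0.03, Aldh3a2 within TGF-beta1 0.09 and Aldh9a1 between growth factors −0.04. With the mean over probe sets Aldh7a1 within FGF2 was −0.35. With arrays left out, averages ran from −0.17 to 0.20 for Adh5, −0.05 to 0.26 for Akr1a1, −0.47 to 0.33 for Aldh1a1 and −0.29 to 0.20 for Aldh7a1. Within FGF2 they ran from −0.25 to 0.48 for Adh5, −0.87 to 0.77 for Aldh1a7, −0.09 to 0.88 for Aldh7a1, −0.05 to 0.66 for Aldh9a1 and −0.16 to 0.61 for Cat. Within TGF-beta1 they ran from −0.21 to 0.03 for Adh5, −0.90 to 0.03 for Aldh2, −0.14 to 0.13 for Aldh3a2 and −0.01 to 0.33 for Aldh9a1. Between growth factors they ran from −0.30 to 0.11 for Adh5, −0.34 to 0.36 for Aldh9a1 and −0.41 to 0.13 for Cat. The cause of these shifts was not tested. No detection calls were used, so signals near 23.66 have no stated background.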
